A study of Mus musculus with 4 samples.

Results

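Genes for collagen, laminin and integrin chains, together with those for nidogens, perlecan and fibronectin, were followed in ID4-EGFP+ mouse spermatogonia with and without *Cnot3*, whose product belongs to CCR4-NOT, the complex that shortens poly(A) tails of mRNAs. Members were the 85 of 54920 listed genes whose symbol matched a pattern of family names: 44 collagen chains, 11 laminin chains, 26 integrin subunits, and *Nid1*, *Nid2*, *Hspg2* and *Fn1*. The pattern used names alone and no expression value.

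Collagens, laminins, nidogens and perlecan build the basement membrane, the sheet of matrix on which the seminiferous epithelium rests. Spermatogonial stem cells (SSCs) sit on that sheet and hold it through integrins, receptors made of an α and a β subunit that bind matrix outside the cell and the actin cytoskeleton inside it. In the testis the peritubular myoid cells and the Sertoli cells are the classical sources of this basement membrane. The α6 and β1 integrin proteins are surface markers by which SSCs are commonly sorted.

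All mice carried *Cnot3* flox/flox and *Id4-eGfp* and were injected with 4-OHT on days 1 to 3 after birth (P1 to P3). *Cnot3*-cKO mice also carried *Ddx4*-creER, which acts in germ cells, and the control mice, labelled wild type, did not. GFP+ cells were sorted from testes at P8 to enrich for SSCs, and RNA-seq of 2 control and 2 *Cnot3*-cKO libraries was analysed here. The study describes more replicates of this experiment than these. The labels do not say whether each library came from its own animal or from pooled animals, so that p-values measure the spread between these libraries. Controls held 40957899 and 43378493 counted reads and *Cnot3*-cKO libraries 22192964 and 28019626. *Cnot3* itself stood at 58.6 and 50.2 CPM (counts relative to the TMM-scaled library size) in the controls and at 19.2 and 19.9 CPM in the *Cnot3*-cKO libraries. Its log2 fold change was -1.48 (SE 0.13, edgeR quasi-likelihood test, adjusted p = 1.48e-05).

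Germ cell genes dominated the marker lists of all 4 libraries, although somatic markers were also present and many were higher in *Cnot3*-cKO. Summed over 12 genes listed as pan-germ cell, the level was 5019 and 5497 CPM in controls and 4608 and 4884 CPM in *Cnot3*-cKO cells. *Nanos3* and *Kit* were lower, and the study uses *Kit* as a marker of differentiating spermatogonia. *Dazl* held the largest part of the sum, at 2339 and 2634 against 2024 and 2263 CPM. Scaling by the pan-germ cell genes, used below, rests on the reads of this same list. Of 12 SSC genes 5 were higher (*Id4*, *Gfra1*, *Etv5*, *Bcl6b* and *Eomes*) and 2 lower (*Zbtb16* and *Sall4*), and their sum was 1242 and 1126 against 1109 and 1159 CPM. Of the 12 Sertoli cell markers 10 were higher, and their sum went from 271 and 258 to 886 and 920 CPM. All 5 tested Leydig cell markers were higher (368 and 322 against 831 and 896 CPM), and *Insl3*, a defining Leydig cell gene, was listed at 0 reads in every library. The annotation lets 64.8% of *Insl3* exon bases overlap *Jak3* on the same strand. Macrophage and other leukocyte markers were higher for 9 of 10 genes (279 and 182 against 618 and 503 CPM). Of the peritubular myoid markers 2 of 7, *Acta2* and *Myl9*, were higher, and the sum of all 7 was 19.96 and 24.6 against 35.9 and 43.5 CPM. Of 9 tested endothelial markers 2, *Pecam1* and *Kdr*, were higher. The 10 listed endothelial markers summed to 47.4 and 44.8 against 62.5 and 69.6 CPM, with *Emcn* at 0, 2, 2 and 18 reads. Of 7 interstitial fibroblast markers 2, *Pdgfra* and *Dcn*, were higher, and the sum of all 7 was 71.7 and 67.4 against 92.6 and 118 CPM. The platelet genes *Ppbp*, *Gp9* and *Gp1bb* had 0 to 4 reads in any library, and *Pf4* rose by 1.58 on the log2 scale. Since 91.1% of *Gp1bb* exon bases overlap *Sept5* on the same strand, its count is uncertain. Higher somatic markers were found in the same libraries as the matrix gene changes described here, and their part in each result was not tested. In bulk RNA, fewer cells of a type and less RNA per cell cannot be told apart, and likewise for more.

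**Figure D1:**
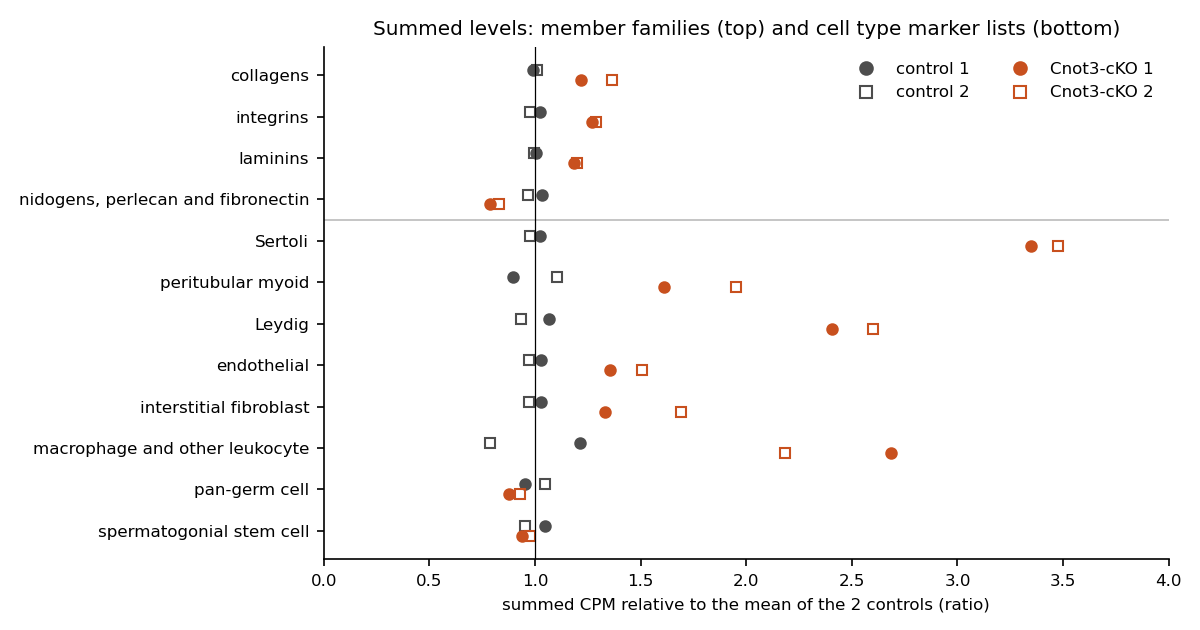
Summed CPM of the 4 member families (above the line) and of 8 cell type marker lists (below it) in each library, divided by the mean of the 2 controls; circles and squares are the first and second library of a group, grey for control and orange for *Cnot3*-cKO. Sertoli cell, Leydig cell and leukocyte lists lie farthest to the right in *Cnot3*-cKO, the member families lie nearer to 1, and nidogens, perlecan and fibronectin are the member family below 1.

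Of the 85 members, 81 passed the expression filter and were tested, and 20 were higher and 3 lower in *Cnot3*-cKO cells at an adjusted p under 0.01. That is 24.7% and 3.70% of those tested, where 6.21% and 4.7% of all 23952 tested genes were higher and lower. Among the members that rose were *Col3a1*, *Col5a2*, *Col4a1*, *Col4a2*, *Col4a4*, *Col4a5*, *Col6a1*, *Col14a1*, *Col18a1*, *Lama1*, *Lama3*, *Lama4*, *Lamb2*, *Nid1*, *Itga6*, *Itgav*, *Itga9*, *Itgb5* and *Itgb8*. The members that fell were *Col5a1*, *Hspg2* and *Fn1*. DESeq2 called the same members and in addition *Col1a2*, *Col2a1*, *Lama2* and *Itgb2* higher and *Itgb3* lower, 24 and 4 in all. The median log2 fold change of the tested members was 0.44, against 0.01 for all tested genes, and 63 of the 81 were above 0. The members' summed share of all reads was 0.307% and 0.297% in the controls, against 0.360% and 0.381% in *Cnot3*-cKO.

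Most of these changes were below 2-fold. Above 2-fold were 4 of 81, among them *Itgb8*, *Lama1* and *Lama4*, where 4.03% of all tested genes rose and 0.735% fell by that much. By the same edgeR test 0 members fell by more than 2-fold, and the number was also 0 with DESeq2 and at an unadjusted p under 0.05. Several members lay just under the limit, so that the count above 2-fold became 9 without control 1, 7 without control 2 and 9 without *Cnot3*-cKO 1. The number that fell at any fold change also shifted when 1 library was left out. When the test itself required more than a 2-fold change (glmTreat), 0 members passed in either direction. The lower *Cnot3*-cKO library exceeded the higher control for 53 of the 81 members, and the reverse order held for 11, where 30.5% and 28.6% of all tested genes were placed in these ways, and the groups overlapped for 17. Over all genes the 1488 higher and 1125 lower became 1857 and 346 when library sizes were set by the pan-germ cell genes, and members then numbered 25 higher and 2 lower.

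**Figure D2:**
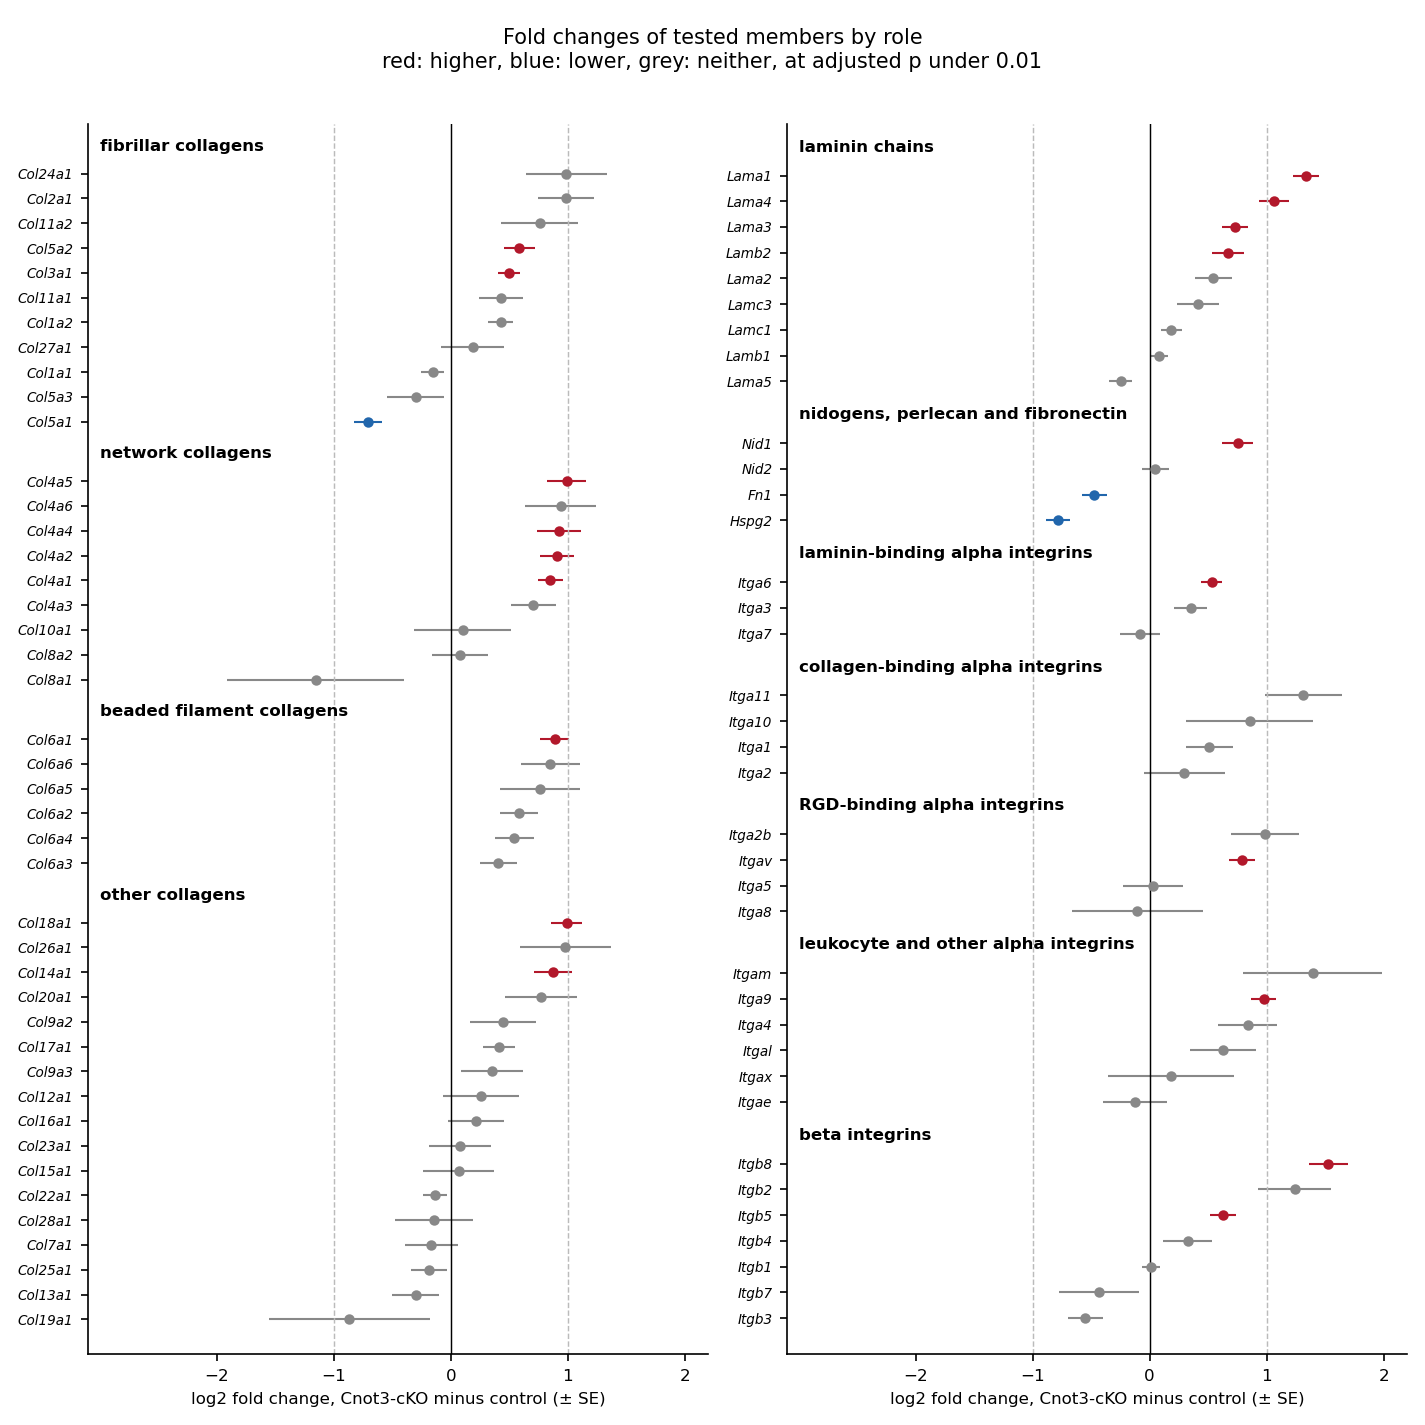
Log2 fold change (*Cnot3*-cKO minus control, x axis) of the tested members grouped by role, with bars of 1 standard error and dashed lines at 2-fold. Red points are members that rose, blue points the 3 that fell, and grey points those that passed in neither direction, with 1 tested member not drawn; points lie mostly to the right of 0, and the widest bars belong to members with few reads.

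Of the 6 genes of type IV collagen, the network-forming collagen of basement membranes, 4 rose, where 6.21% of all tested genes were higher. *Col4a1* and *Col4a2* encode the chains of its common form, *Col4a3*, *Col4a4* and *Col4a5* those of the specialised network of glomeruli and some other membranes, and *Col4a6* pairs with *Col4a5*. *Col4a1* was at 42.8 and 48.3 CPM in controls and at 79.7 and 84.4 CPM in *Cnot3*-cKO cells, a log2 fold change of 0.85 (SE 0.11, adjusted p = 2.06e-04). *Col4a2* was at 17.1 and 20.8 against 34.0 and 37.3 CPM (0.91, SE 0.14, adjusted p = 9.28e-04). *Col4a5* went from 10.3 and 11.3 to 19.9 and 23 CPM (0.99, SE 0.16, adjusted p = 0.00126). *Col4a4* rose from 11.4 and 11.2 to 17.6 and 25.4 CPM (0.93, SE 0.19, adjusted p = 0.00446), and without *Cnot3*-cKO 2, the higher library, its call was lost (0.63, adjusted p = 0.0648). *Col4a3* and *Col4a6* had log2 fold changes of 0.71 (adjusted p = 0.0227) and 0.94 (adjusted p = 0.0443), which missed the threshold. *Cnot3*-cKO lay above control without overlap in all 6 genes, an order seen in 30.5% of all tested genes. Their log2 fold changes ran from 0.71 to 0.99.

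The proportions of the type IV chains were close in both groups. Per length of exon, *Col4a1* held 48.5% of the family's signal in controls and 47.5% in *Cnot3*-cKO cells, *Col4a2* 22.7% and 23.2%, *Col4a5* 12.8% and 13.8%, and *Col4a4* 8.50% and 8.67% (means of 2 libraries). The 6 genes stand in head-to-head pairs on GRCm38. *Col4a1* and *Col4a2* start 21 bases apart on chromosome 8 with 22 bases of shared exon, *Col4a4* and *Col4a3* 72 bases apart on chromosome 1, and *Col4a6* and *Col4a5* 1309 bases apart on chromosome X. Such pairs are known to share the promoter region between them, so the stretch around the *Col4a1* start, and the whole interval between *Col4a4* and *Col4a3*, are shown. Letters are from RefSeq (GRCm38.p6), on the strand of *Col4a1* and of *Col4a4*. Capitals mark a GC box (GGGCGG, or CCGCCC on the other strand) or a CCAAT box (CCAAT, or ATTGG on the other strand). The *Col4a1* window is chr8:11312777-11313076, minus strand, 300 bases around its start, and the other interval is chr1:82586850-82586920, minus strand. Most of the *Col4a1* window lies within the GENCODE *Col4a2* gene, whose annotated start overlaps that of *Col4a1*.
Col4a1: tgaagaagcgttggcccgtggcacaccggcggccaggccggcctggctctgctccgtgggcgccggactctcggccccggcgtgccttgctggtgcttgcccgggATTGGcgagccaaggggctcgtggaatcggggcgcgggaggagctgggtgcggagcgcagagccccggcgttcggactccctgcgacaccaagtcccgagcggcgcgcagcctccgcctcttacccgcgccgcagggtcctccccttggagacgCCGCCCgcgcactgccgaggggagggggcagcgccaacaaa
Col4a4-Col4a3 interval: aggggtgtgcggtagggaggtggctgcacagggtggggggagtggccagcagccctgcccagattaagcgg
The *Col4a1* window held 1 GC box and 1 CCAAT box and was 74.0% G and C. Neither motif was present in the 71 bases between *Col4a4* and *Col4a3*. Over all 32851 RefSeq promoter windows 35.7% held a GC box and 37.4% a CCAAT box, and over the 66 windows of the 60 members in the table the shares were 56.1% and 27.3%. A match here describes letters and was not tied to any factor.

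Laminins are trimers of an α, a β and a γ chain, and the α chain sets which receptor binds. *Lama1*, the α1 chain of embryonic and tubular basement membranes, was at 26.3 and 24.8 CPM in controls and at 64.3 and 65.1 CPM in *Cnot3*-cKO cells (log2 fold change 1.34, SE 0.11, 2.53-fold, adjusted p = 9.96e-06). *Lama4*, the α4 chain known from vessels and muscle, was at 20.2 and 20.8 against 44.0 and 41.6 CPM (1.06, SE 0.12, adjusted p = 1.25e-04). *Lama3*, the α3 chain of epithelial anchoring sites, was at 65.6 and 54.6 against 103 and 96.7 CPM (0.73, SE 0.11, adjusted p = 6.57e-04). The groups did not overlap in these 3 genes, with *Cnot3*-cKO above as in 30.5% of all tested genes. *Lama5*, the α5 chain and the highest α chain of the controls per length, stood apart in direction with 156 and 189 against 145 and 146 CPM (-0.25, SE 0.10), which did not pass (adjusted p = 0.102) except without control 1 (-0.40, adjusted p = 9.68e-05). *Lama2* had a log2 fold change of 0.55 (adjusted p = 0.0270 by edgeR and 0.00990 by DESeq2).

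The make-up of the α chain transcripts differed between the groups. Per length, *Lama5* was 51.3% and 59.7% of the α chain signal in the controls and 36.0% and 35.9% in the *Cnot3*-cKO libraries. The share of *Lama1* was 10.2% and 9.20% in controls and 18.7% and 18.9% in *Cnot3*-cKO, and that of *Lama4* 6.27% and 6.17% against 10.3% and 9.70%. The smallest two-sided p of an exact permutation test with 2 libraries per group is 0.333, and these shares are given without a test.

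The β1 and γ1 chains, shared by most laminins, were among the steadier members. *Lamb1* was at 325 and 304 CPM in controls and 333 and 332 CPM in *Cnot3*-cKO cells (0.08, 95% interval -0.09 to 0.25, adjusted p = 0.533), and *Lamc1* at 122 and 117 against 137 and 136 CPM (0.19, adjusted p = 0.153). *Lamb2*, the β2 chain of synapses, glomeruli and vessels, rose from 25.1 and 31.1 to 41.5 and 48.0 CPM (0.67, SE 0.14, adjusted p = 0.00491), a call lost without *Cnot3*-cKO 2 (0.56, adjusted p = 0.0309). *Lamb3*, which encodes the β3 chain of epithelial anchoring sites, was not tested, with 1 and 4 control reads against 14 and 5 in *Cnot3*-cKO. *Lamc3* had a log2 fold change of 0.41 (adjusted p = 0.133).

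**Figure D3:**
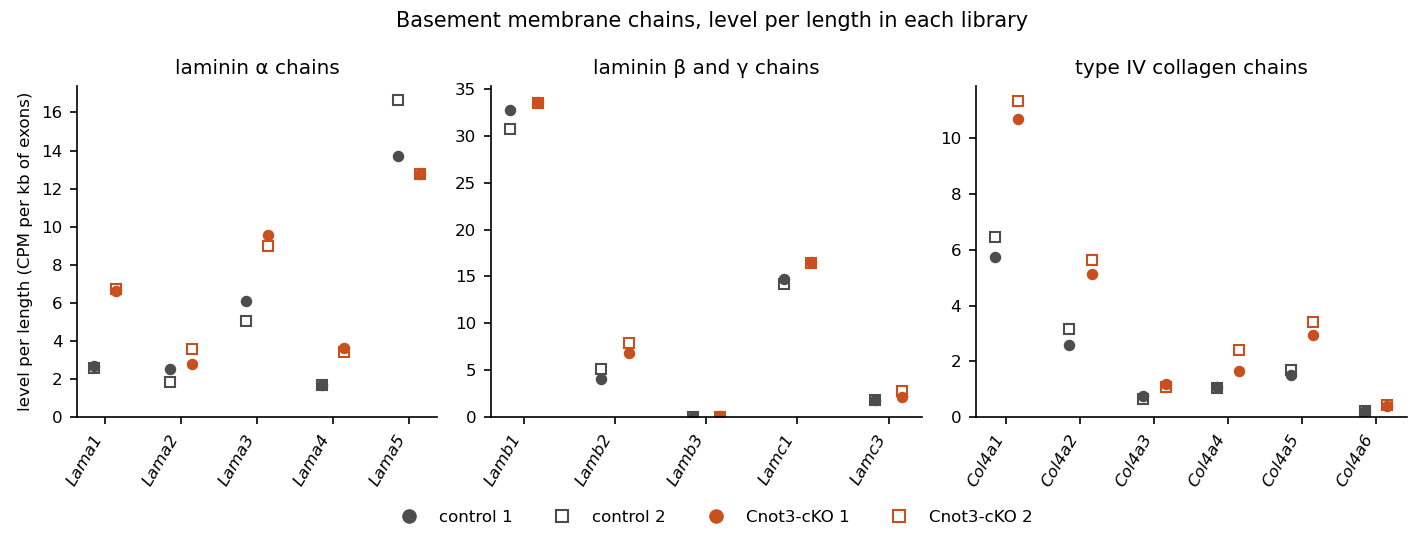
Level per length (CPM per kb of exons) of laminin α chains (left), laminin β and γ chains (middle) and type IV collagen chains (right) in each library; grey is control and orange *Cnot3*-cKO, circles the first and squares the second library. *Lama1*, *Lama3* and *Lama4* lie higher and *Lama5* lies lower in both *Cnot3*-cKO libraries, *Lamb1* and *Lamc1* change little for their level, and the points of all type IV chains lie higher.

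Of the 3 members that fell, *Hspg2* and *Fn1* belong to the linkers and large glycoproteins of the matrix. *Hspg2* encodes perlecan, a heparan sulphate proteoglycan of basement membranes, and lies on chromosome 4 of GRCm38 from 137468769 to 137570630. It was at 131 and 147 CPM in controls and at 76.7 and 85.1 CPM in *Cnot3*-cKO cells (log2 fold change -0.78, SE 0.10, adjusted p = 2.07e-04). The groups did not overlap, with *Cnot3*-cKO below as in 28.6% of all tested genes. *Fn1*, the gene of fibronectin, was at 311 and 247 against 205 and 197 CPM (-0.47, SE 0.10, adjusted p = 0.00692). The size of the *Fn1* change, but not its call, depended on control 1, since without that library it was -0.31. Its call was lost without *Cnot3*-cKO 2 (-0.45). The call was also lost when library sizes were set without TMM factors (-0.41, adjusted p = 0.0170), by the upper quartile (-0.44, adjusted p = 0.0224) or by the pan-germ cell genes (-0.33, adjusted p = 0.113). *Nid1*, which links laminin to type IV collagen, rose from 41.7 and 31.8 to 59.3 and 64.5 CPM (0.75, SE 0.13, adjusted p = 0.00202). Its paralog *Nid2* was at 98.1 and 120 against 104 and 122 CPM, with overlapping groups (0.05, 95% interval -0.20 to 0.30, adjusted p = 0.831).

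The *Hspg2* promoter window is shown as the start of the member that fell the most among those that passed, with GC boxes in capitals (RefSeq, GRCm38.p6, chr4:137468553-137468852, plus strand, 300 bases around the RefSeq start).
Hspg2: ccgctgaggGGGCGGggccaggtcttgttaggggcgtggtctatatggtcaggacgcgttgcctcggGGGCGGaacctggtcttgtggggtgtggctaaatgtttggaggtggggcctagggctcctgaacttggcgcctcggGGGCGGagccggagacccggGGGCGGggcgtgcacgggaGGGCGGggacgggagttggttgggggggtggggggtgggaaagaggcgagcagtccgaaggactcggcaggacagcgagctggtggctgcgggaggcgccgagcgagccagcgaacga
It held 5 GC boxes and no CCAAT box and was 70.3% G and C.

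Among fibrillar collagens, the rope-forming collagens of connective tissue, the abundant type I genes passed in neither direction. *Col1a1* was at 87.9 and 78.8 against 74.8 and 75.0 CPM (-0.15, adjusted p = 0.316) and *Col1a2* at 157 and 148 against 182 and 227 CPM (0.43, adjusted p = 0.0127). The latter came under 0.01 in several alternatives, DESeq2 among them (adjusted p = 0.00474). *Col3a1*, the partner of type I in soft tissue and vessels, was at 212 and 204 against 265 and 322 CPM (0.50, SE 0.10, adjusted p = 0.00345), and lost its call without *Cnot3*-cKO 2 (0.35, adjusted p = 0.0810). Type V collagen, which starts fibrils, had chains that moved apart. *Col5a1* fell from 94.1 and 118 to 61.1 and 68.5 CPM (-0.71, SE 0.12, adjusted p = 0.00132). *Col5a2* rose from 27.2 and 24 to 36.7 and 40.2 CPM (0.59, SE 0.13, adjusted p = 0.00714), although not without *Cnot3*-cKO 1 (adjusted p = 0.0121) or without *Cnot3*-cKO 2 (adjusted p = 0.0596). *Col3a1* and *Col5a2*, which both rose, lie tail to tail on chromosome 1 with 24615 bases between them. The other 6 fibrillar genes (*Col2a1*, *Col5a3*, *Col11a1*, *Col11a2*, *Col24a1* and *Col27a1*) passed in neither direction by edgeR, and DESeq2 called *Col2a1* higher (adjusted p = 0.00604).

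Type VI collagen, which forms beaded filaments next to basement membranes, lay higher in both *Cnot3*-cKO libraries for all 6 of its genes, an order seen in 30.5% of all tested genes. The median log2 fold change was 0.67, but only *Col6a1* passed. It was at 33.1 and 36.7 against 58.0 and 70.9 CPM (0.89, SE 0.12, adjusted p = 4.37e-04). *Col6a2* (0.58, adjusted p = 0.0230) and *Col6a3* (0.41, adjusted p = 0.0910), whose chains join the product of *Col6a1* in the common trimer, were at 15.4 and 17.4 CPM on average in controls and at 23.1 and 23 CPM in *Cnot3*-cKO cells.

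Of the 17 other tested collagens, 2 rose (11.8%), where 6.21% of all tested genes were higher. *Col18a1*, a basement membrane collagen and the source of endostatin, was at 30.7 and 40.7 CPM in controls and 73.1 and 68.7 CPM in *Cnot3*-cKO cells (0.99, SE 0.13, 1.99-fold, adjusted p = 3.36e-04). *Col14a1*, a collagen that coats fibrils, was at 11 and 11.3 against 21.4 and 19.4 CPM (0.87, SE 0.16, adjusted p = 0.00235), a call lost without *Cnot3*-cKO 1 (0.79, adjusted p = 0.0115). The highest of these per length in controls was *Col22a1*, a collagen of tissue junctions, at 67.6 and 75.6 against 66.6 and 64.2 CPM (-0.13, 95% interval -0.35 to 0.09, adjusted p = 0.426). *Col17a1*, the transmembrane collagen of hemidesmosomes, was at 21.1 and 20.1 against 27.1 and 27.7 CPM (0.41, adjusted p = 0.0481). *Col9a1* was not tested, with 8 and 2 control reads against 24 and 6. The other 13 (*Col7a1*, *Col9a2*, *Col9a3*, *Col12a1*, *Col13a1*, *Col15a1*, *Col16a1*, *Col19a1*, *Col20a1*, *Col23a1*, *Col25a1*, *Col26a1* and *Col28a1*) passed in neither direction, like *Col8a1*, *Col8a2* and *Col10a1* of the network collagens.

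**Figure D4:**
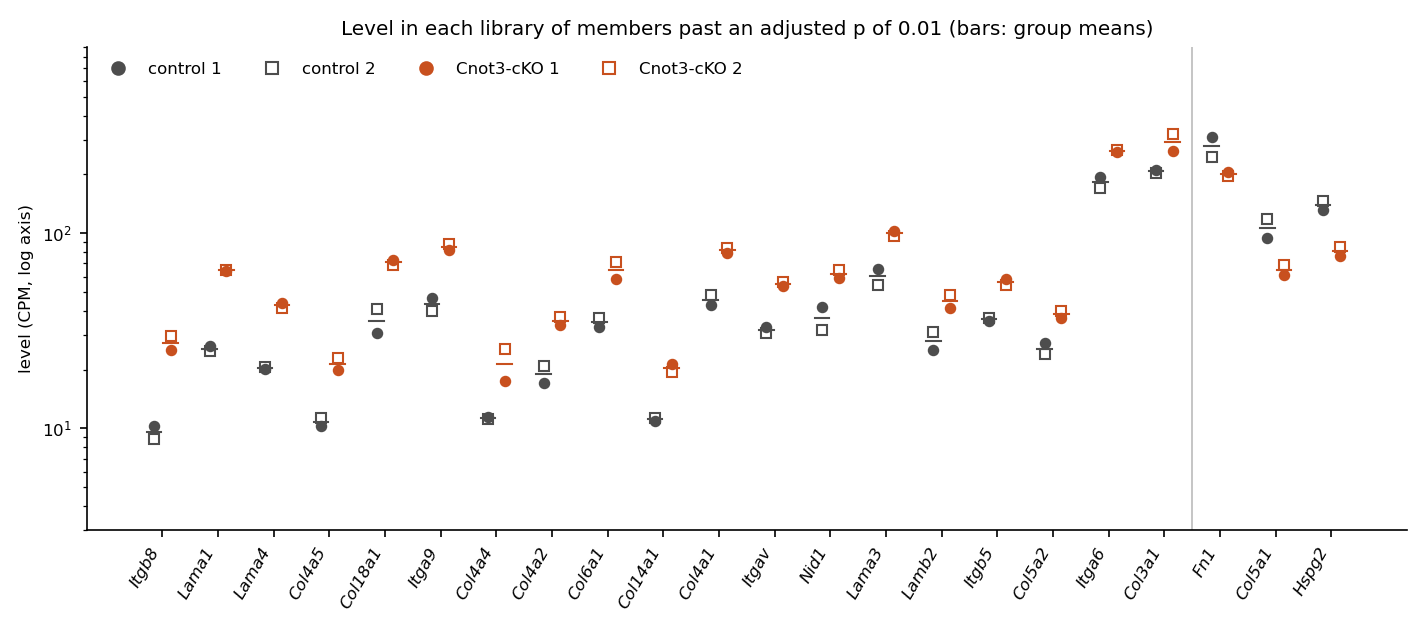
CPM (log axis) in each library of members that rose (left of the line, ordered by fold change) and the 3 that fell (right of it), with bars at the group means; grey is control and orange *Cnot3*-cKO, circles the first and squares the second library. The 2 groups are apart in every gene drawn, from *Itgb8* at the left to *Hspg2* at the right, and these genes were picked by the test on the same libraries.

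The integrin subunits were led by *Itgb1* and *Itga6*. Per length, *Itgb1* made up 82.1% of the β subunit signal in controls and 76.7% in *Cnot3*-cKO cells, and *Itga6* 51.8% and 50.1% of the α subunit signal. *Itgb1* was at 326 and 323 CPM in controls and 326 and 329 CPM in *Cnot3*-cKO cells, with overlapping groups and a log2 fold change of 0.01 (95% interval -0.15 to 0.18, adjusted p = 0.930). *Itga6*, whose product binds laminin together with β1 or β4, rose from 194 and 172 to 260 and 268 CPM (0.53, SE 0.09, 1.44-fold, adjusted p = 0.00124). The other laminin-binding subunits did not pass: *Itga3* was at 20.5 and 26.1 CPM on average (0.35, adjusted p = 0.0990) and *Itga7* at 14.6 and 13.8 CPM (-0.08, adjusted p = 0.792). *Itgb4*, the β subunit of hemidesmosomes, was at 6.52 and 8.16 CPM (0.33, adjusted p = 0.321).

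The largest change of all members was in *Itgb8*. It encodes the β8 subunit, which pairs with αv and is known for activating latent TGF-β. *Itgb8* was at 10.3 and 8.79 CPM in controls and at 25.2 and 29.9 CPM in *Cnot3*-cKO cells (1.53, SE 0.17, 2.88-fold, adjusted p = 7.30e-05), and leaving out any 1 library gave 1.39 to 1.64. *Itgav*, the gene of its αv partner, was at 32.9 and 30.9 against 53.7 and 56.4 CPM (0.79, SE 0.11, adjusted p = 4.71e-04). *Itgb5*, another partner of αv and a vitronectin receptor subunit, was at 35.7 and 36.9 against 58.0 and 54.0 CPM (0.62, SE 0.11, adjusted p = 0.00188), with its call lost without *Cnot3*-cKO 1 (0.56, adjusted p = 0.0166). The β3 partner of αv differed in direction, since *Itgb3* was at 21.2 and 22.9 against 14.9 and 15.3 CPM (-0.55, SE 0.15), which missed the threshold by edgeR (adjusted p = 0.0210) and passed it by DESeq2 (adjusted p = 0.00810). *Itgb1*, whose product also pairs with αv, is given above, and *Itgb6*, for a further αv partner, had 0 to 7 reads per library. The share of *Itgb8* in the β subunit signal per length went from 0.961% and 0.823% to 2.18% and 2.58%, and that of *Itgb5* from 10.3% and 10.8% to 15.6% and 14.5%.

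*Itgb8* lies on chromosome 12 from 119158022 to 119238802, minus strand. Its RefSeq promoter window is shown because the gene changed the most, with the CCAAT box in capitals (GRCm38.p6, chr12:119238227-119238526, minus strand). The window lies inside the GENCODE gene, whose start is farther upstream.
Itgb8: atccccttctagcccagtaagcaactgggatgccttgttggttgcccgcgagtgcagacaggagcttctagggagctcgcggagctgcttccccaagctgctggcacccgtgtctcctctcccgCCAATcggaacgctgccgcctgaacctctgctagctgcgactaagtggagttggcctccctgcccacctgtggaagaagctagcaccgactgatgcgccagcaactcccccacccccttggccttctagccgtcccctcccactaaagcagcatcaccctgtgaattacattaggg
It held 1 CCAAT box and no GC box, and at 60.7% G and C it was below the *Col4a1* and *Hspg2* windows.

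*Itga9*, the second α subunit per length, encodes the α9 chain that pairs with β1 and binds tenascin C and osteopontin. *Itga9* was at 46.5 and 40.2 CPM in controls and at 82.1 and 88.1 CPM in *Cnot3*-cKO cells (0.97, SE 0.11, 1.96-fold, adjusted p = 9.66e-05). The genes of these 2 ligands, which are not the only ones, were also higher. Both were named for rising above 2-fold in a list given below, and other α9 ligands were not compared. *Tnc* (tenascin C) went from 2.86 and 2.50 to 13.6 and 9.85 CPM (2.12, SE 0.24) and *Spp1* (osteopontin) from 5.56 and 5.56 to 19.9 and 19.3 CPM (1.82, SE 0.18).

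Among collagen-binding subunits 0 of 4 passed by edgeR or by DESeq2, and 2, *Itga1* and *Itga11*, had an unadjusted p under 0.05. *Itga11*, known from fibroblasts, had 1.27 and 1.21 against 3.18 and 3.0 CPM (1.31, SE 0.33, adjusted p = 0.0145). *Itga1* was at 9.21 and 13.1 CPM on average (0.51, adjusted p = 0.0948) and *Itga2* at 1.75 and 2.15 CPM (0.29, adjusted p = 0.619). Among receptors for the RGD motif, *Itga5*, the fibronectin receptor α subunit, was at 4.09 and 4.19 CPM (0.03, 95% interval -0.53 to 0.59, adjusted p = 0.954) and *Itga2b*, the platelet subunit, at 2.08 and 4.12 CPM (0.99, adjusted p = 0.0294). *Itga4*, *Itga8* and *Itga10* passed in neither direction. The exons of *Itga10* overlap a same-strand gene model over 33.5% of their length, so its count is uncertain.

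Integrins of leukocytes were at low levels. The genes *Itgad*, *Itgae*, *Itgal*, *Itgam*, *Itgax*, *Itgb2* and *Itgb7* summed to 17.3 and 13.3 CPM in controls and to 24.2 and 16.6 CPM in *Cnot3*-cKO libraries. Of the 6 tested, 0 passed by edgeR and 1 (*Itgb2*) by DESeq2, and 3 were higher at an unadjusted p under 0.05 (*Itgal*, *Itgam* and *Itgb2*). *Itgae* was at 5.64 and 5.20 CPM on average (-0.13, adjusted p = 0.808), *Itgal* at 3.47 and 5.38 CPM (0.63, adjusted p = 0.143), and *Itgb2*, the β subunit of several leukocyte integrins, at 2.71 and 1.78 against 6.36 and 4.29 CPM (1.24, SE 0.31, adjusted p = 0.0138). The sums of the groups overlapped. They include *Itgae*, the highest of these genes in controls, which itself overlapped at 6.08 and 5.21 against 6.53 and 3.88 CPM. *Itgad* was not tested, with 2 and 2 control reads against 8 and 7. The exons of *Itgam* overlap a same-strand gene model over 68.7% of their length, so its count is uncertain.

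**Figure D5:**
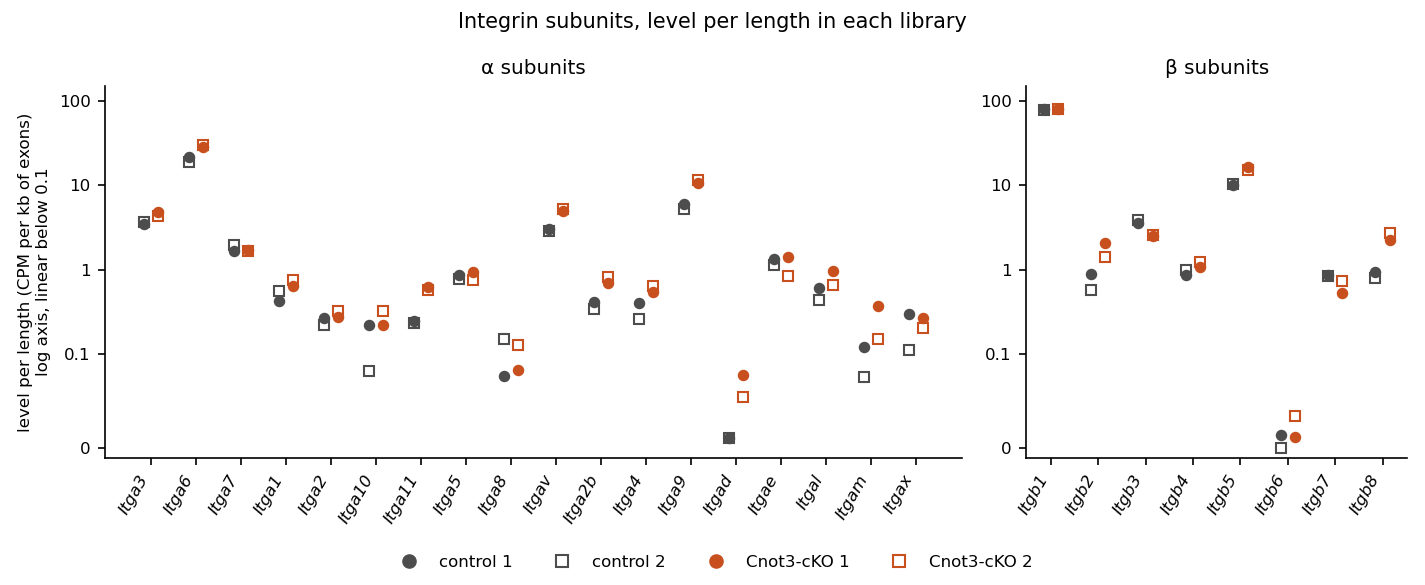
Level per length (CPM per kb of exons, log axis that is linear below 0.1) of 18 α subunits (left) and 8 β subunits (right) in each library; grey is control and orange *Cnot3*-cKO, circles the first and squares the second library. *Itgb1* and *Itga6* are the highest, the *Itgb1* points coincide, and *Itgb8*, *Itgb5*, *Itgav* and *Itga9* are higher in both *Cnot3*-cKO libraries.

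Genes that make, fill, bind and cut this matrix were read from 5 further lists. Of their 136 tested genes 31 were higher (22.8%) and 11 lower (8.09%). Over all tested genes 6.21% were higher and 4.7% lower, and these shares also stand beside the counts of each list below. With library sizes set by the pan-germ cell genes 37 listed genes were higher and 5 lower. Enzymes of collagen synthesis and crosslinking passed in both directions, with 4 of 31 higher and 2 lower (1 lower with pan-germ cell scaling). *Serpinh1*, the collagen chaperone, rose by 1.04 on the log2 scale (adjusted p = 2.04e-04), and *Pcolce* (1.33) and *Adamts2* (1.05), which help to trim procollagen ends, also rose, as did *Bmp1*, the procollagen C-proteinase, below 2-fold. The lysyl hydroxylase *Plod1* fell below 2-fold. *Adamts14*, a relative of *Adamts2*, fell from 7.87 and 7.84 to 2.87 and 3.32 CPM (-1.34, adjusted p = 0.00175).

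Other matrix glycoproteins were higher for 8 of 35 tested genes and lower for 5, and the number lower was 3 without *Cnot3*-cKO 2 and 2 with pan-germ cell scaling. *Sparc*, which binds type IV collagen, was at 70.7 and 66.4 CPM in controls and at 175 and 163 CPM in *Cnot3*-cKO cells (1.30, SE 0.09, adjusted p = 3.40e-06). Above 2-fold were also *Ntn4* (1.88), which binds laminin γ chains, *Tnc*, *Spp1*, *Tnxb* (1.41) and *Tgfbi* (1.17). *Fras1*, a protein of epithelial basement membranes, was at 114 and 83.6 against 45.1 and 45.7 CPM (-1.12, SE 0.13, adjusted p = 1.44e-04), and *Agrn*, *Npnt*, *Fbn2* and *Fbln1* fell by less than 2-fold.

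Receptors other than integrins were higher for 4 of 11 tested genes and lower for 1 (2 without control 2). Above 2-fold were *Ddr2*, a collagen receptor kinase (1.13, SE 0.24), and *Bcam*, a receptor for the laminin α5 chain (1.37, SE 0.24), while *Ddr1* and *Lrp1* rose and *Sdc1* fell by less. In the adhesion machinery that ties integrins to actin, 5 of 33 tested genes were higher and 2 lower, and *Tns1*, a tensin, was the 1 above 2-fold (1.43, SE 0.18). *Parva*, *Zyx*, *Kank2* and *Cd81* rose by less, and *Tln2* and *Ptk2*, which encode talin 2 and focal adhesion kinase, fell. Without *Cnot3*-cKO 2 that list had 2 higher, and without control 2 it had 8 higher; the number lower was 5 without control 1, 4 without control 2, 1 without either *Cnot3*-cKO library, 1 with library size only and 0 with pan-germ cell scaling. *Ilk*, the integrin-linked kinase, was listed at 0 reads in 3 libraries, and 76.7% of its exon bases overlap *Taf10* on the opposite strand, so its count is uncertain.

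Matrix proteases and their inhibitors were higher for 10 of 26 genes and lower for 1 (2 without control 1), with a median log2 fold change of 0.69. *Mmp14*, a membrane-bound collagenase, was at 17.3 and 12.8 against 44.2 and 37.7 CPM (1.44, SE 0.16, adjusted p = 9.66e-05). *Timp3*, an inhibitor that stays bound to the matrix, was at 12.6 and 12.2 against 35.6 and 37.0 CPM (1.55, SE 0.14, adjusted p = 1.62e-05). *Adamts9* (1.41), *Adamts1* (1.59), *Mmp23* (2.2) and *Plaur*, the urokinase receptor (2.27), also rose by more than 2-fold, and the gene that fell was *Reck*, a membrane-bound protease inhibitor.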

How the data were processed

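RNA-seq of sorted ID4-EGFP+ cells covered 2 libraries per group, control and *Cnot3*-cKO. The authors deposited whole-number read counts per gene symbol, without normalization, made from stranded total RNA libraries aligned to mm10 with STAR and counted with featureCounts on GENCODE genes. Whether counting used strand, or reads matching several genes, is not given in the sources used here. Members and lists were chosen with earlier results of these data known.

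Counts were compared with edgeR 4.0.16 (R 4.3.3): TMM scaling, the default expression filter, which kept 23952 genes, and the quasi-likelihood F test with group as the only term and Benjamini-Hochberg adjustment over all tested genes. "Rose", "fell", "higher" and "lower" mean an adjusted p under 0.01. The biological coefficient of variation was 0.145, and 3 reads was taken as the floor, 0.0713 to 0.132 CPM by library, for counting error only. Levels per length used collapsed exon lengths of GENCODE M21 on GRCm38, the assembly of mm10. RefSeq promoter windows matched 60 of 85 members. Named with values were members that passed, the 3 highest per length of each role, *Itga6*, *Itgb1* and *Itgav*, and listed genes past 2-fold. *Col4a3*, *Col4a6*, *Lama2*, *Lamc3*, *Itgb2*, *Itgb4*, *Col2a1*, *Col6a4*, *Col6a5*, *Col6a6*, *Col12a1*, *Col24a1*, *Col8a1*, the untested members, *Itgam*, *Ilk* and listed genes that passed below 2-fold were added after their values were seen. Alternatives were other scalings and filters, DESeq2 1.42.0, glmTreat, robust dispersions, a replicate block and leaving out each library. The procedure was tested on simulated data. Control libraries differed from each other by more than sampling noise (chi-square per degree of freedom 20.7), as did *Cnot3*-cKO libraries (6.77), so none was counted as a duplicate. Figures used matplotlib 3.10.9. Values of 1 member are not reported here, although it is kept in the counts.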

Additional observations from a re-analysis of the deposited data

How the results depend on the processing

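Apart from glmTreat, the 44 named members gave 572 values over 13 alternatives. Direction and side of the threshold held in 530, 11 lost the call, 20 gained it and 11 changed sign, and 16 of the 23 changed members kept their call throughout. The 4 members above 2-fold became 7 with upper quartile scaling, 8 with library size only, 13 with pan-germ cell scaling, 9 at a mean count of at least 50 and 6 to 9 without 1 library. Members higher numbered 17 to 28 and members lower 2 to 5 without 1 library. Listed matrix genes numbered 25 to 36 higher and 8 to 16 lower without 1 library, and 5 lower with pan-germ cell scaling. With glmTreat 0 members and 0 listed genes passed, and *Cnot3* (-1.48) had an adjusted p of 0.0346, since that test asks for more than 2-fold. The members' median of 0.44 was 0.59 with pan-germ cell scaling, which moved the median of all genes to 0.15, was 0.53 at a mean count of at least 50, and was 0.38 to 0.55 without 1 library. Signs changed for members near 0. With pan-germ cell scaling *Col22a1* was at 0.019, *Itga7* at 0.068 and *Itgae* at 0.025, and without a filter *Itgb1* was at -0.014. Without 1 library *Nid2* ran from -0.11 (control 1) to 0.19, *Itga7* from -0.21 to 0.029 (control 2), *Itga5* from -0.14 (*Cnot3*-cKO 1) to 0.18, *Itgae* from -0.55 to 0.21 (*Cnot3*-cKO 2) and *Itgb1* from -0.0063 (control 2) to 0.011. *Nid2* was also at -0.076 without *Cnot3*-cKO 2 and *Itga5* at -0.070 without control 2. Unless stated, the cause was not tested.

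The labels do not say whether libraries with the same replicate number shared more than the number. Their deviations from group means had a correlation of 0.0776 over 16437 genes. With 2 libraries per group that value cannot show whether they were paired. With the replicate block 29 members were higher, 3 lower and 7 above 2-fold, with a median of 0.44, and *Cnot3* was at -1.47. Depth limits the members under a few CPM, whose standard errors reached 0.76 (*Col8a1*).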

Other observations

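Several members outside the type IV pairs also stand next to each other in the genome, within 100 kb, and their values are given here side by side with no explanation. *Col6a4*, *Col6a5* and *Col6a6*, further chains of type VI collagen, form a row on chromosome 9 with 28811 and 27918 bases between neighbours, and had log2 fold changes of 0.54 (adjusted p = 0.0364), 0.76 (adjusted p = 0.144) and 0.85 (adjusted p = 0.0316). *Col6a1* and *Col6a2* lie 85162 bases apart on chromosome 10 and had 0.89 and 0.58. *Itga1* and *Itga2*, both for collagen-binding subunits, lie 20996 bases apart on chromosome 13 and had 0.51 and 0.29. *Col1a1* and *Itga3* lie tail to tail on chromosome 11, 91432 bases apart, with -0.15 and 0.35.

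Some members differed widely between the 2 controls. *Col24a1* was at 3.3 and 1.5 CPM in the controls, *Col12a1* at 6.08 and 3.04 CPM, and *Col6a6* at 7.70 and 4.40 CPM, whereas in *Cnot3*-cKO libraries *Col24a1* was at 4.94 and 4.57 CPM and *Col6a6* at 11.2 and 10.6 CPM. *Col12a1* was at 6.53 and 4.43 CPM in *Cnot3*-cKO, overlapping the controls.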
